A study of Mus musculus with 6 samples.

Results

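Janus kinases and STAT factors were followed in T-ALL, acute leukaemia of immature T cells, from mice with and without Phf6, a chromatin-associated PHD finger protein. The members were the rows of the deposited table that carry the symbols of the kinases Jak1, Jak2, Jak3 and Tyk2 and of the transcription factors Stat3, Stat4, Stat5a, Stat5b and Stat6. All 9 were found among 23306 genes with an identifier, and all 9 were among the 17993 genes with enough reads to test. PolyA RNA was sequenced from isogenic tumours on the C57BL/6 background that had been harvested from bone marrow. The design had 3 libraries with wild-type Phf6 and 3 with Phf6 knocked out. Phf6 was deleted conditionally by a Cre recombinase that tamoxifen switches on, and the vehicle was corn oil, and the labels do not say which libraries received which. The sources used here do not give the cells in which Cre was active, or the ages and number of the animals. The column headers of all 6 libraries begin with the same code, followed by a different number for each library, and the sources used here do not say what either stands for. No label states that the libraries are separate mice, so the p-values measure only the spread between these libraries, which may be technical. Where 3 values follow each other, they belong to libraries 1, 2 and 3 of that genotype, in that order.

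Janus kinases are tyrosine kinases that sit on the cytoplasmic tails of cytokine receptors. When a cytokine joins its receptor chains, the paired kinases phosphorylate each other, the receptor and then STAT proteins, which dimerise, enter the nucleus and bind DNA at paired half-sites. SOCS proteins and CISH, which STATs induce, feed back on the receptors, and tyrosine phosphatases remove the activating marks. In the T lineage, interleukin 7 and the other cytokines that use the common gamma chain signal through JAK1 and JAK3 to STAT5, and mutations that activate this route recur in human T-ALL. The data here are RNA levels, which do not report phosphorylation.

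The sequences below show the element that many STAT dimers bind, TTCNNNGAA, in capitals, with the remaining letters in lower case. The element is its own reverse complement, so 1 search covers both strands. RefSeq promoter windows (GRCm38.p6, 250 bases before and 50 after a transcript start) were found for all 9 members, as 12 windows, and none of the 12 held the element. It was present in 8.3% of all 32851 windows and in 14 of 81 windows of the pathway genes described further on. Stat6 is shown because it was the member with a called change. Il12rb2, a receptor gene, fell with Phf6 deletion, and Irf1, Socs3 and Cish are STAT-induced genes whose levels differed more between libraries of a group than between genotypes.
Stat6, chr10:127642736-127642954, plus strand, upstream of the first annotated start: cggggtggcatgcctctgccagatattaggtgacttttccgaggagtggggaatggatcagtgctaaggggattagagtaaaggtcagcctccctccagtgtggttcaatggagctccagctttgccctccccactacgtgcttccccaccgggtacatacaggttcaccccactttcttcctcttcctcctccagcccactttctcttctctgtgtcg
Il12rb2, chr6:67376189-67376438, minus strand, upstream of the start: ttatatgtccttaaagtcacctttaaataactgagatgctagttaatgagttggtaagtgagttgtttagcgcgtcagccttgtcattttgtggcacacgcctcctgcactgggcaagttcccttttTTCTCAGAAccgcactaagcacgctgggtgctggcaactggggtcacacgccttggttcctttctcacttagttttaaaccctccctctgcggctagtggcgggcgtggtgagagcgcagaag
Irf1, chr11:53769764-53770013, plus strand, upstream of the start: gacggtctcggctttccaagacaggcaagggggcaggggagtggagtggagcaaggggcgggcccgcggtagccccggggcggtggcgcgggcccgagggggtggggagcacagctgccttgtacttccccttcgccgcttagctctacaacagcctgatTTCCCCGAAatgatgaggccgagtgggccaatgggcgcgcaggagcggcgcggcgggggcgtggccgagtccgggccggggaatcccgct
Socs3, chr11:117969502-117969530, minus strand, the site with its flanks: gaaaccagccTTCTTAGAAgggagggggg
Cish, chr9:107296658-107296679, plus strand, the tandem sites at the annotated start: tTTCCTGGAAagTTCTTGGAAa
The starts used for these windows are those of RefSeq. In GENCODE M21 the Cish and Socs3 stretches lie inside the gene, which starts at 107296026 for Cish and, on the minus strand, at 117970047 for Socs3. These matches describe letters in a window and are not measurements of binding.

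Reads assigned to genes numbered between 46067511 and 54953145 per library. Phf6 itself was lower in every knockout library (log2 fold change -1.34 ± 0.13 SE; limma adjusted p = 0.00184). All 12 T-lineage markers were detected, and their summed normalised count was 332305 to 349112 in wild type and 268842 to 301116 in knockout, the highest sum of any marker list used. All 17 markers of neutrophils and their precursors were higher in every knockout library than in any wild-type library, with sums of 6389 to 23974 and of 50732 to 67389. The same separation was seen for 15% of all genes tested. B-cell marker sums were 156 to 224 and 362 to 884, and macrophage and monocyte sums were 1961 to 4457 and 7132 to 12490. Lyz2 was the largest part of the macrophage and monocyte sum, with means of 1466 in wild type and 5336 in knockout. Of the 14 markers of that list tested, 8 had all knockouts above all wild types. Log2 fold changes were positive for 12 and negative for 2, C1qa (-0.32) and C1qc (-0.23), so the sum does not show a rise of every marker.

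Of the Janus kinase and STAT transcripts, 1 was called with Phf6 deletion. Stat6 fell by 22.8%, and 8 members did not pass the test. A missing call does not show an unchanged level, as the 95% intervals reached 1.59 times for Jak3 and 1.97 times for Stat4. The call of 1 member in 9 stands beside 8.75% of all genes tested, so the share of members called is near the background (3.43% of genes were called lower and 5.32% higher). The median log2 fold change of the 9 members was -0.09, beside -0.01 for all genes tested, and 4 members had positive and 5 negative values. All 3 knockout values lay below all 3 wild-type values for Stat3, Stat5a and Stat6 and above them for no member. A complete separation was seen for 31.2% of all genes tested, with the knockouts below for 16.2% and above for 15%. In bulk RNA such as this, fewer cells of a type and less RNA per cell cannot be told apart.

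**Figure D1:**
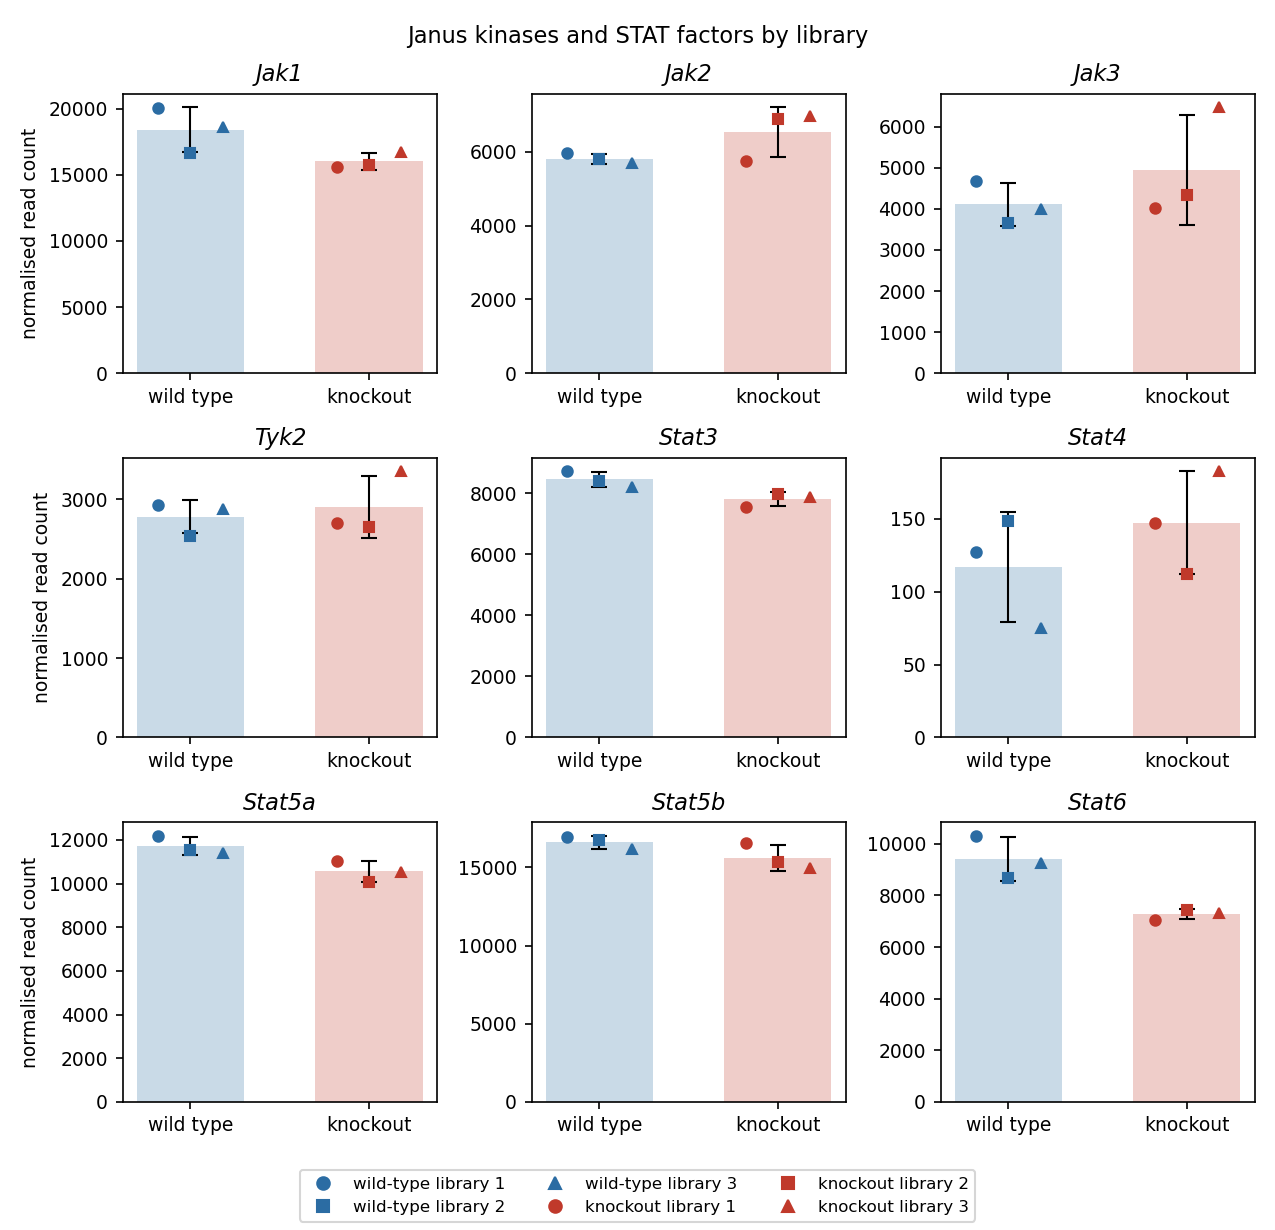
Normalised read count (linear axis from 0) of each of the 9 members in wild-type (blue) and knockout (red) libraries; points are libraries, bars are means and error bars are SDs (n = 3). Stat6 lies at 8656 to 10317 in wild type and 7051 to 7431 in knockout, and in 6 of the 9 panels the groups overlap.

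Jak1 was the most abundant of the kinases. It pairs with JAK3 on common gamma chain receptors, with JAK2 or TYK2 on receptors of the interleukin 6 family and with either on interferon receptors. Its normalised read counts were 20057, 16625 and 18610 across the wild types and 15592, 15730 and 16763 across the knockouts. Knockout values were low as a group, yet knockout library 3 was above wild-type library 2, so the groups overlapped. Its log2 fold change, -0.20 ± 0.09 SE, was not called (limma adjusted p = 0.201), with a 95% interval from 0.759 to 1.001 times the wild-type level.

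Jak2 transmits signals of the receptors for erythropoietin, thrombopoietin, GM-CSF and interleukin 3. It was at 5964, 5796 and 5687 across the wild types and at 5753, 6894 and 6975 across the knockouts. Knockout libraries 2 and 3 were the highest of the 6, and knockout library 1 lay within the wild-type range. Jak2 was not called, at 0.16 ± 0.09 SE on the log2 scale (limma adjusted p = 0.301) and an interval of 0.973 to 1.29 times.

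Jak3 binds the common gamma chain and is expressed mainly in blood cells. Its counts were 4673, 3661 and 3996 across the wild types and 4015, 4349 and 6490 across the knockouts. Knockout library 3 stood above the other 5, and the other 2 knockout libraries lay within the wild-type range. With all libraries its log2 fold change was 0.24 ± 0.18 SE (limma adjusted p = 0.458; interval 0.883 to 1.59 times), and it was 0.03 without knockout library 3. Jak3 shares 1362 bases with Insl3 on the same strand, a gene at 84.9 to 230 reads.

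Tyk2 serves the receptors of type I interferon, interleukin 12 and interleukin 23. It had the smallest change of the family, with 2924, 2540 and 2869 reads across the wild types and 2700, 2654 and 3351 across the knockouts. The groups overlapped, and knockout library 3 was again the highest. At 0.06 ± 0.11 SE (log2; limma adjusted p = 0.792) the change was not called. It turned to -0.051 without knockout library 3 and to -0.0059 without wild-type library 2, and its interval ran from 0.879 to 1.23 times. The antisense gene 1700084C06Rik lies opposite most of Tyk2.

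Stat6 carries the signal of interleukin 4 and interleukin 13 and was the member that fell. The gene (ENSMUSG00000002147; GRCm38 chromosome 10, 127642986 to 127660957, plus strand, protein coding) had counts of 10317, 8656 and 9260 across the wild types and 7051, 7431 and 7310 across the knockouts. Every knockout library was below every wild-type library, and the spread was larger among the wild types (9411 ± 841, SD, n = 3) than among the knockouts (7264 ± 195, SD, n = 3). On the log2 scale the change was -0.37 ± 0.09 SE (limma adjusted p = 0.0279), with an interval of 0.678 to 0.883 times the wild-type level. The call was also made by edgeR's quasi-likelihood test (adjusted p = 0.0325) and DESeq2 (adjusted p = 0.00629), and it was lost with library totals as the only scaling (limma adjusted p = 0.0703) and without trend and robust moderation (limma adjusted p = 0.104). It was also lost when wild-type library 1 or 3 or knockout library 1, 2 or 3 was left out (limma adjusted p = 0.130, 0.0924, 0.0781, 0.0542 and 0.0963), with log2 fold changes between -0.39 and -0.30.

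The end of Stat6 overlaps Nab2, a gene for a corepressor of EGR transcription factors, by 40 bases on the opposite strand. Nab2 was examined after its values were seen. It had 4395, 4793 and 4324 reads across the wild types and 3029, 3642 and 2748 across the knockouts, and it fell as well (log2 fold change -0.53 ± 0.11 SE; limma adjusted p = 0.0191). The sources used here do not give the strand setting of the counting. The part of shared reads in either fall was not tested. The union of Stat6 exons is 4402 bases long.

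Among tested protein-coding genes with a mean of at least 1 CPM, those whose profile over the 6 libraries was most like that of Stat6 were Zbtb40, a zinc finger gene, Dhx37, a helicase gene of ribosome assembly, and Poll, which encodes DNA polymerase lambda. The measure was the root mean square difference of centred log2(value + 2), and it was 0.016, 0.026 and 0.029 for Zbtb40, Dhx37 and Poll. Their log2 fold changes were -0.36, -0.35 and -0.36, and Poll was not called (limma adjusted p = 0.0758).

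Stat5a and Stat5b, neighbouring paralogs that mediate interleukin 7 and interleukin 2 signals, were together with Stat3 part of a cluster on chromosome 11. Stat5b (GRCm38 chromosome 11, 100780731 to 100850724, minus strand) had 16949, 16746 and 16156 reads across the wild types and 16565, 15320 and 14990 across the knockouts. Knockout library 1 lay within the wild-type range and the other 2 below it. Stat5b was not called, at -0.09 ± 0.08 SE on the log2 scale (limma adjusted p = 0.512) and an interval of 0.834 to 1.06 times.

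Stat5a (GRCm38 chromosome 11, 100859351 to 100885169, plus strand) had 12200, 11563 and 11407 reads across the wild types and 11057, 10086 and 10524 across the knockouts. The groups did not overlap. The difference of -0.15 ± 0.08 SE on the log2 scale did not pass the test (limma adjusted p = 0.252; interval 0.799 to 1.01 times). The log2 ratio of Stat5a to Stat5b reads within a library, not corrected for length, was -0.50 ± 0.03 in wild type and -0.57 ± 0.05 in knockout (SD, n = 3). The ratio differed by -0.06 between genotypes, and the two-sided exact permutation test gave p = 0.2, where 3 against 3 libraries cannot go below 0.1.

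Stat3, the main effector of interleukin 6, 10 and 21 receptors, overlaps the end of Stat5a by 72 bases on the opposite strand. It had 8718, 8411 and 8216 reads across the wild types and 7542, 7981 and 7888 across the knockouts. The groups did not overlap, though wild-type library 3 and knockout library 2 lay close together. Stat3 was not called, at -0.11 ± 0.07 SE on the log2 scale (limma adjusted p = 0.371) and an interval of 0.824 to 1.04 times.

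Stat4, which acts downstream of interleukin 12 in T and NK cells, was the scarce member. Its counts were 127, 148 and 75.0 across the wild types and 147, 112 and 183 across the knockouts. The groups overlapped, with wild-type library 3 the lowest and knockout library 3 the highest. Its log2 fold change was 0.36 ± 0.28 SE (limma adjusted p = 0.468), and the interval of 0.832 to 1.97 times was the widest of the 9 members. Without wild-type library 3 the value was 0.07. Stat4 overlaps a processed pseudogene on the opposite strand, Gm3940, which had 16.6 to 40.7 reads.

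**Figure D2:**
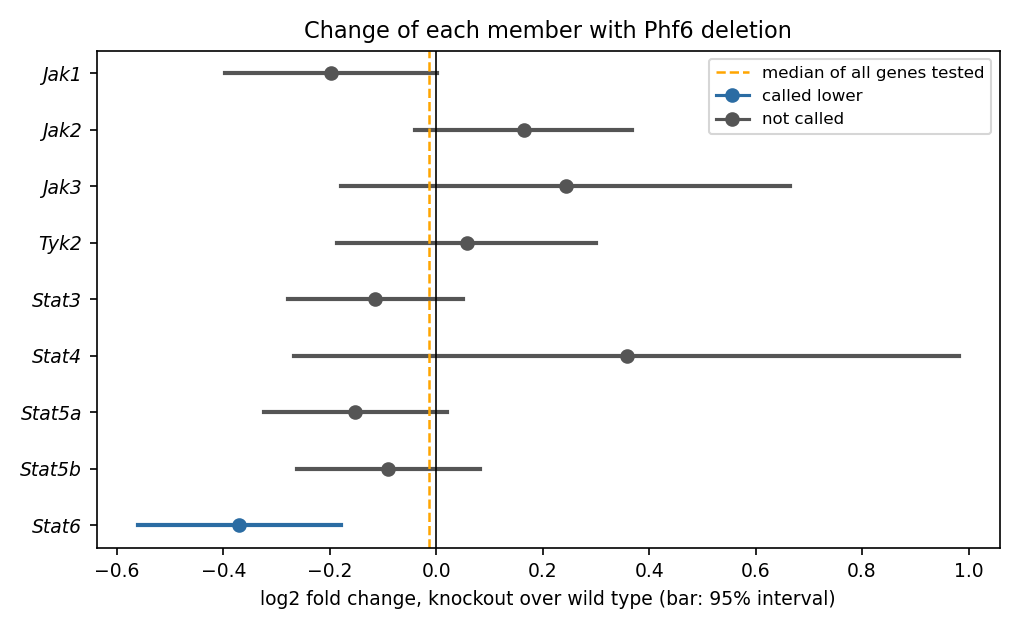
Log2 fold change, knockout over wild type, of each member (point) with its 95% interval from limma (bar); the dashed line is the median of all genes tested, -0.01. The interval of Stat6, in blue, lies below 0, and those of the other 8 members include 0.

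Levels were compared between genes per kilobase of exon (normalised reads divided by the length of the union of annotated exons). Stat5b was the highest at 3000.03 ± 74.4 in wild type and 2821 ± 150 in knockout (SD, n = 3), followed by Jak1 at 2550 ± 238 and 2218 ± 88.5. Next came Stat6 at 2138 ± 191 and 1650 ± 44.2 and Stat5a at 1644 ± 58.9 and 1480 ± 68.2. Stat5b was above Jak1, Jak1 above Stat6 and Stat6 above Stat5a in each of the 6 libraries. Within a genotype the ranges of these neighbours did not overlap, except for Jak1 and Stat6 in wild type. With both genotypes pooled, the ranges of each of these neighbouring pairs overlapped.

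Jak2 was below these 4, at 1156 ± 27.7 and 1300 ± 136 reads per kilobase in wild type and knockout (SD, n = 3), with no overlap with Stat5a above it or Stat3 below it. Stat3 (887 ± 26.6 and 819.1 ± 24.3) and Jak3 (768 ± 96.3 and 925 ± 251) overlapped in their levels. Tyk2 (405 ± 30.3 and 423 ± 56.8) was lower than Jak3 in every library, and Stat4 (30.2 ± 9.7 and 38.0 ± 9.1) was the lowest by a wide gap. The order by wild-type mean was the order by knockout mean except for Stat3 and Jak3.

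**Figure D3:**
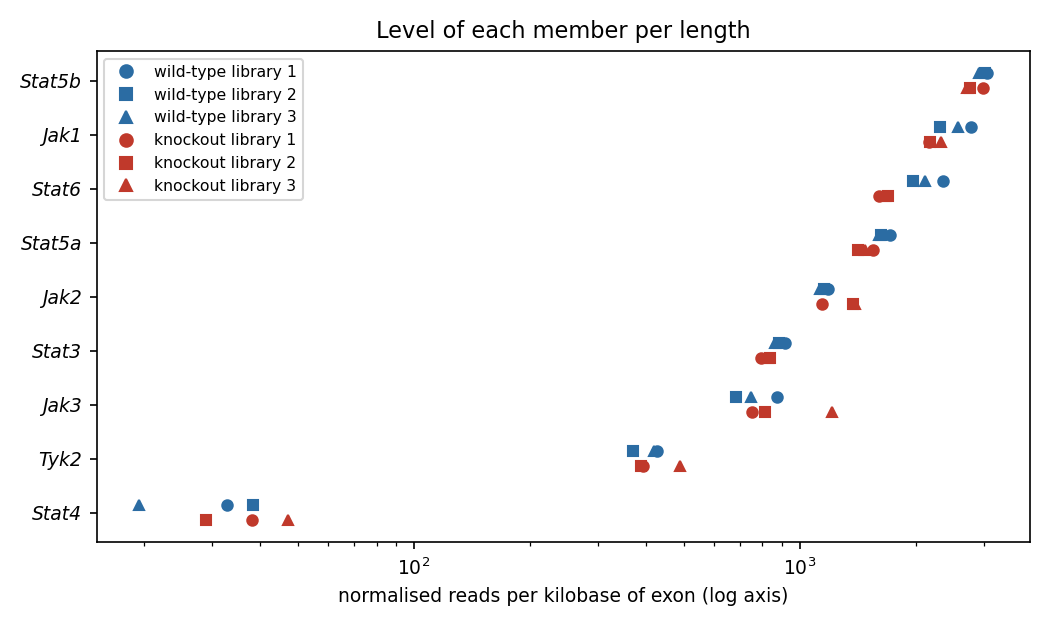
Normalised reads per kilobase of exon (log axis) of each member, with 1 point per library, wild type in blue and knockout in red, ordered by the mean. Stat4 lies between 19.4 and 47.1 in all libraries, far to the left of the other members, which lie between 370 and 3060.

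The summed level of the 4 kinases per kilobase was 4879 ± 377 in wild type and 4866 ± 492 in knockout (SD, n = 3), a ratio of 0.997. For the 5 STATs the sums were 7698 ± 315 and 6808 ± 142, a ratio of 0.884, to which Stat6 contributed the largest difference. Within the kinases Jak1 made up 52.2% ± 1.03 of the sum in wild type and 45.8% ± 2.8 in knockout. The share of Jak2 was 23.8% ± 1.6 and 26.8% ± 1.8 and that of Jak3 15.7% ± 0.78 and 18.8% ± 3.1 (SD, n = 3). Stat6 made up 27.7% ± 1.5 of the STAT sum in wild type and 24.3% ± 1.1 in knockout, while Stat5b made up 39.0% ± 1.1 and 41.4% ± 1.3. No test was made of these sums and shares.

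Stat2 and Irf9, which take part in type I interferon signalling downstream of TYK2, were measured too. Stat2 had 1619 ± 220 reads across the wild types and 1734 ± 158 across the knockouts, and Irf9 had 1311 ± 145 and 1493 ± 163 (SD, n = 3). Both overlapped between groups and were not called, with log2 fold changes of 0.10 for Stat2 and 0.19 for Irf9 (limma adjusted p = 0.638 and 0.363). Per kilobase, Stat2 (283) and Irf9 (260) were below Tyk2 and above Stat4 in mean level over the 6 libraries.

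Upstream of the kinases, 30 of the 35 cytokine receptor genes listed could be tested, and 6 rose and 2 fell (median log2 fold change 0.17). Over all genes tested, 5.32% rose and 3.43% fell. Of the 6 rises, 4 were in receptor chains of myeloid growth factors that use JAK2. Csf2rb, the beta chain shared by the receptors for GM-CSF, interleukin 3 and interleukin 5, had 101, 154 and 108 reads across the wild types and 478, 651 and 702 across the knockouts (log2 fold change 2.32 ± 0.21 SE; limma adjusted p = 0.00154). Its near-identical paralog Csf2rb2 rose by 2.06 on the log2 scale, and reads may be split between them. The alpha chain gene Csf2ra rose by 1.09 and the G-CSF receptor gene Csf3r by 1.71.

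Lifr, the receptor chain for leukaemia inhibitory factor, rose by 2.72 from 16.6 ± 8.9 reads, and Il10ra, a JAK1 receptor that activates STAT3, by 0.72. Of the 30 receptor genes tested, 11 had all knockouts above all wild types and 5 had them below. Over all genes tested the shares were 15% and 16.2%. All 6 called rises were among the 11, but a call on the same values makes separation likely and it adds no support. The 17 neutrophil and precursor markers, of which Csf3r is 1, were higher in the same libraries, with sums of 6389 to 23974 in wild type and 50732 to 67389 in knockout and none of the 17 at 0. The part of such cells in the receptor rises was not tested. Jak2, the kinase of the GM-CSF receptor, had the values given above and no call. Without knockout library 3, 3 receptor genes rose and 2 fell, and Csf2rb2, Lifr and Il10ra were not called. Il2ra, called lower with all libraries, was not called there either (limma adjusted p = 0.0829), so 1 of those 2 falls was in another receptor gene. Il10ra was also lost in limma without trend and robust moderation.

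The receptor genes that fell were Il12rb2 and Il2ra. Il12rb2, the inducible chain of the interleukin 12 receptor that signals to STAT4, had 1411, 1111 and 1357 reads across the wild types and 753, 724 and 713 across the knockouts. The groups did not overlap, at -0.82 ± 0.11 SE on the log2 scale (limma adjusted p = 0.00453), and each of the 19 alternatives gave a call in the same direction. Il2ra, the interleukin 2 receptor alpha chain, fell from 11538 ± 1799 to 7276 ± 996 (SD, n = 3), by -0.66 on the log2 scale (limma adjusted p = 0.0212). The Il2ra call was lost without wild-type library 1 or 3 or knockout library 1 or 3, and in limma without trend and robust moderation (adjusted p = 0.0903). Summed T-lineage markers were lower in the same libraries (332305 to 349112 in wild type and 268842 to 301116 in knockout, none of 12 at 0), and their part in these falls was not tested.

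The chains that bring JAK1 and JAK3 together did not pass the test. Il2rg, the common gamma chain, had a log2 fold change of -0.22 (limma adjusted p = 0.199) and was the most abundant receptor gene of the list per kilobase. Il9r was at -0.31 (limma adjusted p = 0.122) and the interleukin 6 family chain Il6st at -0.09. Il7r had 2318, 1736 and 2821 reads across the wild types and 2804, 2855 and 5788 across the knockouts. Knockout library 3, the highest for Il7r, was also the highest for Jak2, Jak3, Tyk2 and Stat4. For Stat6, Il4ra had a log2 fold change of -0.02 and Il13ra1 of 1.97 from 25.3 reads, neither past the threshold.

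**Figure D4:**
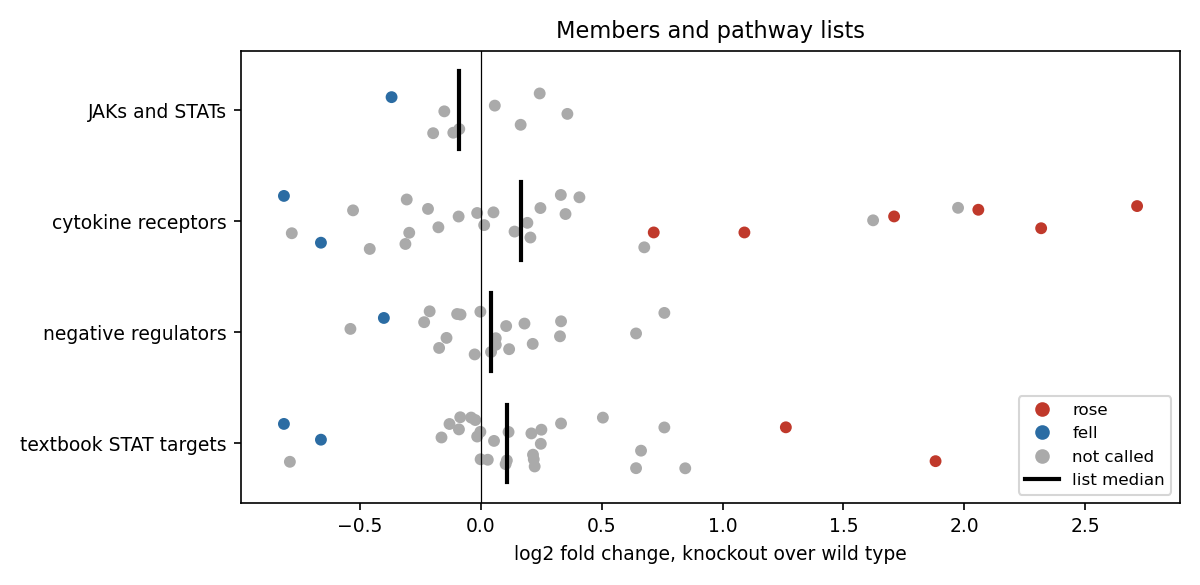
Each gene's log2 ratio of knockout to wild type for the 9 members and of the tested genes of 3 pathway lists, 1 point per gene (red rose, blue fell, grey not called), with list medians as black bars; vertical scatter has no meaning. The receptor list spreads from -0.82 for Il12rb2 to 2.72 for Lifr, while the members stay between -0.37 and 0.36.

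Among 21 negative regulators, Ptpn6 fell and the other 20 did not pass the test (median 0.04). Over all genes tested, 8.75% were called and 3.43% were called lower. Ptpn6 encodes SHP-1, a phosphatase that acts on JAKs and on antigen receptors. It had 16535, 14233 and 16187 reads across the wild types and 11796, 11261 and 12432 across the knockouts, without overlap. Ptpn6 fell by 0.40 on the log2 scale (SE 0.09; limma adjusted p = 0.0219). Like that of Stat6, the call was lost with library totals as the only scaling (limma adjusted p = 0.0662) and when any library other than wild-type library 2 was left out (limma adjusted p between 0.0565 and 0.107), and in limma without trend and robust moderation (adjusted p = 0.0916). The phosphatase gene Ptprc, which encodes CD45, was at -0.17, the ubiquitin ligase gene Cbl at -0.21 and Ptpn1 at -0.10, none called.

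Of 31 textbook STAT target genes, 2 rose and 2 fell (median log2 fold change 0.11), beside 5.32% and 3.43% of all genes tested. The falls were Il12rb2 and Il2ra. Il18r1, the interleukin 18 receptor chain, rose from 21.96 ± 4.4 to 91.9 ± 43.6 reads (by 1.88 on the log2 scale; limma adjusted p = 0.0122), and Prdm1, the gene of the repressor BLIMP-1, from 19.0 ± 4.3 to 50.3 ± 19.2 (1.26; limma adjusted p = 0.0465; SD, n = 3 each). Prdm1 was not called without the number 2 libraries of both groups (limma adjusted p = 0.0710), nor without wild-type library 1 or 3 or knockout library 2 or 3 (limma adjusted p between 0.128 and 0.167), nor in limma without trend and robust moderation (adjusted p = 0.0875). It was not among the genes tested with a filter of 1 CPM in 3 libraries. Il18r1 was not called without knockout library 3 (limma adjusted p = 0.0748). With 1 library left out, the count of targets called was 2 without wild-type library 1 or 3, 3 without knockout library 1 or 2, 1 without knockout library 3 and 4 without wild-type library 2. The abundant targets Fos (0.22), Junb (-0.09), Id2 (0.10) and Mcl1 (0.03) were not called.

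The STAT-induced feedback genes, some of whose promoters are shown above, varied within each genotype rather than between genotypes. Cish had 113, 462 and 46.1 reads across the wild types and 94.9, 642 and 198 across the knockouts. Socs3 had 2266, 4568 and 1396 across the wild types and 1930, 4710 and 3169 across the knockouts. In both genes library 2 of each genotype was the highest, and the groups overlapped (limma adjusted p = 0.747 for Cish and 0.782 for Socs3). Irf1 had 5949, 11679 and 4720 across the wild types and 5964, 10373 and 6623 across the knockouts.

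Library 2 was the highest of its genotype in both groups for 17 of the 31 targets (54.8%), including Socs1, Socs2, Pim1, Bcl3 and Tbx21, beside 20.9% of all genes tested. The 17 also include Cish, Socs3 and Irf1, whose values are given above, and the library numbers were not taken to pair the samples. Myc had the reverse order, with 12128, 7029 and 15791 reads across the wild types and 13802, 6196 and 12003 across the knockouts. None of the 9 members was highest in library 2 of both genotypes, and Stat6 was lowest of the wild types and highest of the knockouts in library 2. The neutrophil marker sum was highest in library 2 of each genotype as well (23974 and 67389), though knockout library 1 was close at 64259. Of the 17 neutrophil markers, 7 were highest in library 2 of both genotypes. The macrophage and monocyte sum (4457 and 12490) and the B-cell sum (224 and 884) were also highest there, and the T-lineage sum was lowest (332305 and 268842). The part of these cell types in the target levels was not tested.

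**Figure D5:**
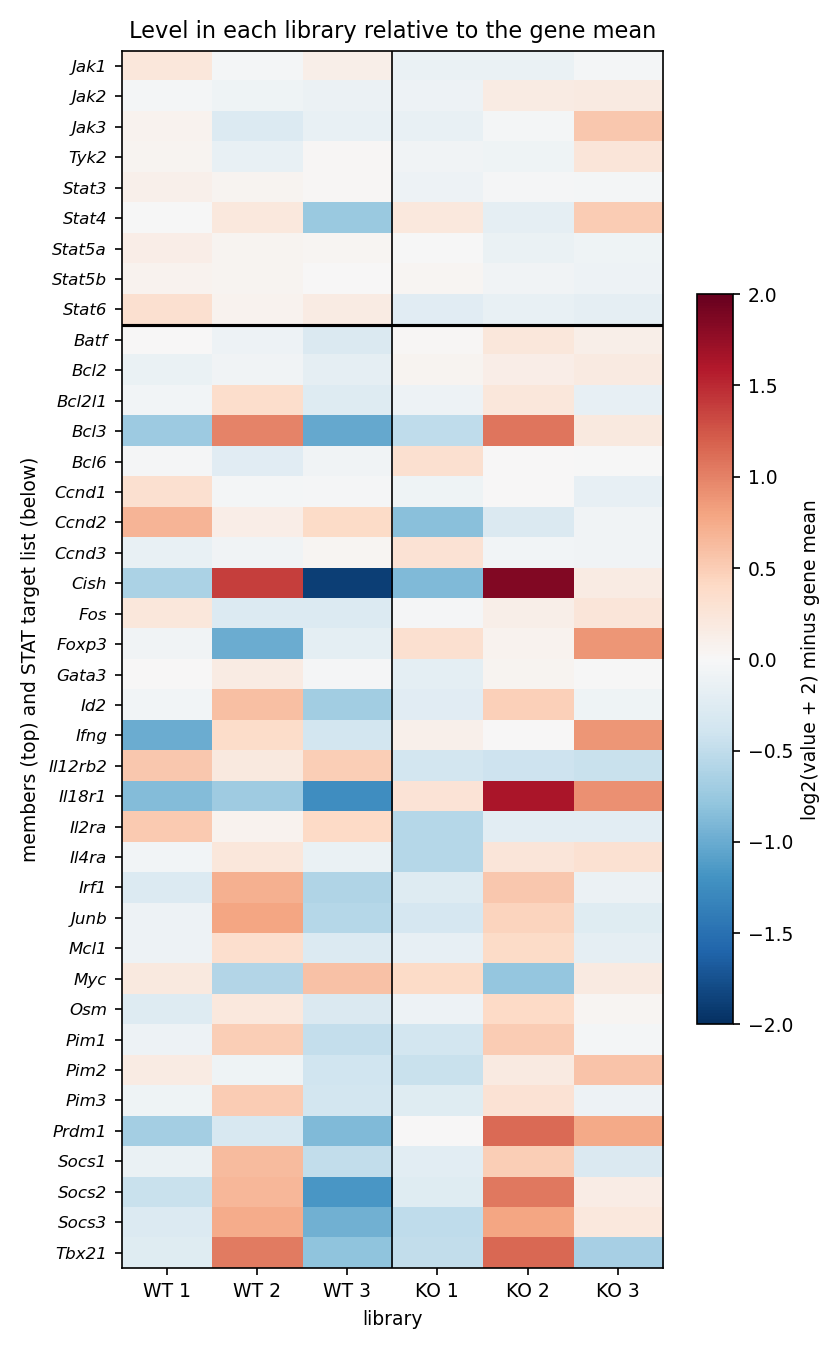
Heat map of log2(value + 2) minus the gene's mean over the 6 libraries for the 9 members (above the line) and 31 STAT target genes (below), with wild-type (WT) libraries on the left and knockout (KO) libraries on the right. Cish, Socs3, Irf1 and Bcl3 are red in library 2 of both genotypes, while the members stay paler, with the strongest colours in Stat4 and Jak3.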

How the data were processed

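PolyA RNA of 6 tumour samples was read from both ends for 150 bases, as the labels' protocols state. The submitters' processing notes list GRCm38, featureCounts, DESeq2, STAR 2.6.0a and bcl2fastq 1.8.4. The deposited values are a signal per gene and library in which the authors had scaled each library's gene counts by 1 constant, as read from the values: dividing by each library's step gave whole reads for 100% of values within 0.01. The sources used here do not give the annotation release, the strand setting or the handling of reads with several matches. Of 23314 rows, 8 without an identifier (at most 0.00106% of reads) were left out.

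Groups and replicate numbers came from the sample titles. Genes were tested where 3 or more libraries reached 10. The main test, in R 4.3.3, was limma 3.58.1 with trend and robust empirical Bayes and the group as its only term, on log2(value + 2). Fold changes are on that scale and understate changes of low genes. The Benjamini-Hochberg adjustment ran over the whole table, and 0.05 was the threshold. Of the genes called, 1435 were among the 1469 that edgeR 4.0.16 called on the recovered reads, and DESeq2 1.42.0 called 2233. Positions, overlaps and exon lengths are from GENCODE M21 (GRCm38). The script was tested on simulated counts. It recovered 74 of 100 genes changed 2-fold and 33 of 100 genes with a smaller change, and 16 of its 123 calls were false. The members, gene lists and naming rule (all members, Phf6, and per list the called and the 4 most abundant genes) were chosen with earlier results of these data known. Some further genes of the lists, among them those under the other observations, are named outside that rule. Alternatives covered scaling, filters, pseudocounts, tools, a replicate block, the threshold and libraries left out. Python 3.11.15 and matplotlib 3.10.9 drew the figures.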

Additional observations from a re-analysis of the deposited data

How the results depend on the processing

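Of the 9 members, Jak1, Jak2, Jak3, Stat3, Stat4, Stat5a and Stat5b kept their direction and stayed uncalled under all 19 alternatives, and Tyk2 changed sign under 2 (to -0.0059 on leaving out wild-type library 2 and to -0.051 on leaving out knockout library 3, in a range up to 0.12 over the libraries left out). Members called numbered 1 with limma as described and 0 with library totals only and in limma without trend and robust. Leaving out 1 library at a time gave 0 to 1 members, 5 to 11 receptors, 0 to 2 negative regulators, 1 to 4 targets and 253 to 1941 genes called, beside 1, 8, 1, 4 and 1575 with all. Without trend and robust, 652 genes, 6 receptors, 0 negative regulators and 2 targets were called. At a threshold of 0.1, 2705 genes and 2 negative regulators were called. Negative regulators called were 0 with library totals only, 2 in DESeq2 and 2 without the number 2 libraries of both groups. DESeq2 called 2233 genes and that last setting 2227. Of the 1575 genes 957 rose and 618 fell, and library totals as the only scaling gave 1217 and 300. Among single libraries left out, the fewest genes were called without knockout library 3 (253), then wild-type library 1 (465), wild-type library 3 (665) and knockout library 2 (986).

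With the replicate block 2568 genes, 13 receptors, 2 negative regulators and 1 member, Stat6 (limma adjusted p = 0.0157), were called. Same-numbered libraries deviated together with correlations of 0.012, 0.50 and 0.14, so the numbers were not taken to pair the samples. In that paired form the Stat5a to Stat5b difference stayed at -0.06 (exact sign-flip p = 0.25). Leaving out 1 library moved it between -0.09 and -0.04. Median log2 fold changes of all genes ran from -0.04 to 0.07 over the scalings and filters. Counts below about 30 reads, as for Lifr in wild type, limit the precision of their fold changes.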

Other observations

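Several genes of the pathway lists were above the threshold of 0.05 but below 0.1. Those named here lie outside the naming rule and were picked with their values known. Ccnd2, the cyclin D2 gene and a STAT5 target, had 7179, 4933 and 5865 reads across the wild types and 2529, 3684 and 4302 across the knockouts (log2 fold change -0.79; limma adjusted p = 0.0744). Socs5, a SOCS family gene, had 1870, 1329 and 1869 reads in wild type and 1165, 994 and 1302 in knockout (-0.54; limma adjusted p = 0.0590). In both genes every knockout library was below every wild-type library, as for 16.2% of all genes tested. Il6ra, the interleukin 6 receptor alpha chain, was at 195, 189 and 75.0 in wild type and 286, 609 and 479 in knockout (1.62; limma adjusted p = 0.0706).

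Of the interferon receptor chains, Ifngr1, Ifngr2 and Ifnar1 were highest in library 2 of both genotypes, as Socs3 and Irf1 were, and Ifnar2 was not. Over the 30 cytokine receptor genes tested, 5 (16.7%) had this order, beside 20.9% of all genes tested, so it was not a trait of the receptor list. Ifngr1 had 2954, 3624 and 2615 reads across the wild types and 2978, 4097 and 3063 across the knockouts. Ifngr2 had 1403, 3011 and 1251 reads across the wild types and 1746, 3669 and 1709 across the knockouts, and Ifnar1 had 3567, 4740 and 3219 and then 3774, 5551 and 3977. Ifnar2, the partner chain of Ifnar1, had 1892, 1962 and 1933 and then 1975, 2008 and 2016, with all 3 knockout libraries above all wild-type libraries and a log2 fold change of 0.05 (limma adjusted p = 0.735).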
